A study of Mus musculus with 8 samples.

Results

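The cells that the authors named B progenitors are a small class of cycling B cells in the mouse colon, 328 of the 53080 cells measured and of the 14940 cells named B cells. They were taken by name: a broad annotation of B cells together with the finer annotation B progenitors in the deposited cell table. Most other cells named B cells were mature B cells (12834) and plasma cells (1538). The tissue was the mucosa of the distal colon from 8 mice, all 8 weeks old, and the assay was droplet-based sequencing of 3′ ends in single cells, run as 1 batch. The 4 KO-labelled mice (mice 2, 3, 6 and 7) carried floxed Spry2 alleles with Cre under the Villin promoter, so that the deletion is directed to the intestinal epithelium and not to B cells. The WT-labelled group (mice 1, 4, 5 and 8, n = 4) were littermates with the floxed Spry2 alleles and no Cre. Their levels are given as CPM, counts per 1000000 UMIs of the cells summed for 1 mouse, where a UMI (unique molecular identifier) stands for 1 transcript molecule that was caught.

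In the bone marrow, B cell precursors assemble their antibody genes with the recombinase Rag1 and Rag2, extend the joints with Dntt and display a surrogate light chain made of Igll1 and Vpreb proteins. Mature B cells leave the marrow with surface IgM and IgD. After antigen contact some of them divide rapidly in germinal centres of lymphoid follicles, where their antibody genes are mutated and switched before they return to rest as memory cells or become antibody-secreting plasma cells. In the gut such follicles lie in Peyer's patches and in smaller lymphoid aggregates of the wall, and most plasma cells of the mucosa secrete IgA.

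Against the label, these cells carried almost no transcript of early B cell formation and many of the germinal centre reaction. They are therefore called here by the authors' name only. Their defining cycle genes Mki67, Top2a and Stmn1 and their B cell gene Cd79a were all measured in quantity, as given below. No UMI of Rag1, Rag2, Dntt, Vpreb2, Igll1 or Erg was counted in any of them. Over the 2517204 UMIs of the class, a count of 0 allows a level of up to 1.19 CPM (3 counts, counting error only). Among the other genes of the early lymphopoiesis list, Vpreb1 had 2 UMIs, Sox4 2, Kit 1, Lef1 3, Cd93 8 and Il7r 10. Flt3, a cytokine receptor of early progenitors, had 61 UMIs, at 18.7 to 36.7 CPM by mouse against 3.54 ± 1.02 CPM in mature B cells (SD, n = 5 mice). Vpreb3 was the only abundant gene of that list, with 889 UMIs, and its level of 352 ± 72.3 CPM lay near the 310 ± 50.8 CPM of mature B cells.

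The class was unevenly spread over the mice. Of the WT-labelled mice, mouse 1 held 124 of the cells, mouse 4 held 68, mouse 5 held 59 and mouse 8 held 0. Of the KO-labelled mice, mouse 2 held 26, mouse 3 held 19, mouse 6 held 31 and mouse 7 held 1. Gene levels are compared over mice 1, 2, 4, 5 and 6, the 5 mice with at least 20 such cells, and mouse 3 is given beside them where it matters. The median UMI count per cell was 3948, 8853, 4554, 5602, 6546 and 9138 in mice 1 to 6. In the 5 mice compared, that was 2.14 to 4.65 times the median of mature B cells of the same mouse. Of the 328 cells, 321 lay in the authors' cluster 23. The other 7 lay in the mature B cell cluster 1 (6 cells) or cluster 13 (1 cell) and held 0 to 8 UMIs of the G2 and mitosis list each. The only cell of mouse 7 was one of these, with Ighd as its leading heavy chain gene. Barcodes of 15 B progenitors also occurred in another mouse, within 356 such barcodes of 52717 in the whole matrix.

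Whole libraries held 17.0 to 37.3 M UMIs in 3302 to 10101 cells. They stood apart in cell quality: of the epithelial cells, the share with at least 50% mitochondrial UMIs was 78.8% in mouse 1, 79.6% in mouse 2 and down to 11.1% in mouse 8. Spry2, the targeted gene, had 10.4, 13.3, 15.7 and 49.3 CPM in the epithelium of KO-labelled mice 2, 3, 6 and 7, and 11.2, 17.6, 27.7 and 37.6 CPM in WT-labelled mice 1, 4, 5 and 8. The groups overlapped, so the epithelial sums do not check the labels. Whether the 3′ tags lie outside the floxed part is not given in the sources used here. In the B progenitors themselves Spry2 had 3 UMIs, 1 in mouse 1 and 2 in mouse 5.

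Genes of the cell cycle set the class furthest apart from mature B cells. The comparison between classes is a description with no test, because the authors' classes come from clustering of these cells. Each log2 ratio was taken within a mouse after adding 10 CPM to both levels, and a gene is counted as higher or lower where the ratio passed 2-fold in 5 of 5 mice. Of 3452 genes with at least 50 CPM in either class, 345 were higher than in mature B cells by that rule, 9.99%, and 213 were lower, 6.17%. The median log2 ratio of all 3452 genes was 0.20. All 20 S phase genes above 50 CPM were higher, with a median log2 ratio of 2.85, and 19 of 20 G2 and mitosis genes were, with a median of 3.64. Cenpa, a centromeric histone, was the exception.

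Mki67, the antigen of dividing cells, measured 625, 1115, 726, 686 and 593 CPM in mice 1, 2, 4, 5 and 6. Its level in mature B cells was 3.78 ± 1.92 CPM, a log2 ratio of 5.76 ± 0.47 (SD, n = 5 mice). Mouse 2 was highest, and no value of the class came near those of mature B cells. Plasma cells were not free of it, with Mki67 found in 29.2% of them and in 65.2% of B progenitors (means over 5 mice). Top2a, the topoisomerase that untangles chromosomes, measured 494, 635, 614, 481 and 585 CPM against 7.00 ± 1.95 CPM. Stmn1, a microtubule regulator of dividing cells, measured 961, 1027, 1209, 1075 and 1206 CPM against 35.3 ± 12 CPM. Pclaf, a partner of the replication clamp, had the largest ratio of all genes above 50 CPM, 63.1-fold with 10 CPM added, at 651 to 1028 CPM. The helicase subunits Mcm3 and Mcm6, which open replication origins, were 7.67 and 8.97 times higher, at 205 ± 26.8 and 302 ± 31.7 CPM. Of 12 nucleotide synthesis genes, 10 were higher, among them Rrm2, a subunit of ribonucleotide reductase, at 165 ± 23.4 against 1.32 ± 0.67 CPM.

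Promoters of part of these genes hold the sequence elements by which textbook accounts separate the phases of the cycle. E2F factors act on S phase genes, and the CHR element is bound by the DREAM and MuvB complexes at genes of G2 and mitosis. RefSeq windows of 300 bases on GRCm38.p6, from 250 before to 50 after the gene start, were found for 25 of 28 G2 and mitosis genes and 20 of 25 S phase genes, taking the first window listed for each gene. The CHR letters, TTTGAA or TTCGAA on either strand, stood in 18 of the 25 G2 and mitosis windows (72%), in 5 of the 20 S phase windows (25%) and in 19.4% of 27025 windows of all genes. The E2F letters, TTTCCCGC, TTTGGCGC, TTTCGCGC or TTTGCCGC on either strand, stood in 8 of the 20 S phase windows (40%), in 1 of the 25 G2 and mitosis windows (4%) and in 2.32% of all. A match describes letters only, and the window of Rrm2 holds neither kind. Of 10 germinal centre windows 4 held the CHR letters (40%) and 1 the E2F letters (10%). Of 9 windows each of the resting mature and pan B cell lists 2 held CHR and 0 held E2F, and of 7 MHC class II windows 0 held either. The windows of 3 G2 and mitosis genes and 2 S phase genes of the class signature, all of them with matches, are printed. They run 5′ to 3′ on the gene's strand, with CHR matches in capitals in the first 3 and E2F matches in capitals in the others.
Mki67, chr7:135716330-135716629, minus strand: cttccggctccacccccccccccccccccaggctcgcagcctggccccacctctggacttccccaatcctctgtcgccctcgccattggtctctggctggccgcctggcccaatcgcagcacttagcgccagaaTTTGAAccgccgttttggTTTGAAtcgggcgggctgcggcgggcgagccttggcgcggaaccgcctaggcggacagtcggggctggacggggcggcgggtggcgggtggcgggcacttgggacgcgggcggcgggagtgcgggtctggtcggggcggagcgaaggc
Top2a, chr11:99024140-99024439, minus strand: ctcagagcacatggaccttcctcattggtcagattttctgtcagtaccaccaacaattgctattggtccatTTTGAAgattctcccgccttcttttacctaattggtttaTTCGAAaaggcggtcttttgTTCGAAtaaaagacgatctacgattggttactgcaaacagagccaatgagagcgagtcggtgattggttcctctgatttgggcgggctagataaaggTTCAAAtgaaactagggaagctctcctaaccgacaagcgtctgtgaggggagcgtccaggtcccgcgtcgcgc
Ccnb2, chr9:70421505-70421804, minus strand: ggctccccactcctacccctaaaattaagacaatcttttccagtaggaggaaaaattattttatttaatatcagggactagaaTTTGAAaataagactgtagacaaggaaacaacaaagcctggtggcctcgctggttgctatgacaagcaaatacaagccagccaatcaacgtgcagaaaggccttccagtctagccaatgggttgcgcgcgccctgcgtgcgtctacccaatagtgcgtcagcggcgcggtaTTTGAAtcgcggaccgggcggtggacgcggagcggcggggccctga
Mcm3, chr1:20820263-20820562, minus strand: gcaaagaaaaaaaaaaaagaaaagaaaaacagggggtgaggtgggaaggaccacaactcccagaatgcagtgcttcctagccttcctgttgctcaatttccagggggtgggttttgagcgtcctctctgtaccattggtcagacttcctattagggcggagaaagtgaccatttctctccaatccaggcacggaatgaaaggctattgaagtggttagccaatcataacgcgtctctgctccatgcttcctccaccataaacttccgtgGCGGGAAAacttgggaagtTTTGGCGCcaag
Mcm6, chr1:128359656-128359955, minus strand: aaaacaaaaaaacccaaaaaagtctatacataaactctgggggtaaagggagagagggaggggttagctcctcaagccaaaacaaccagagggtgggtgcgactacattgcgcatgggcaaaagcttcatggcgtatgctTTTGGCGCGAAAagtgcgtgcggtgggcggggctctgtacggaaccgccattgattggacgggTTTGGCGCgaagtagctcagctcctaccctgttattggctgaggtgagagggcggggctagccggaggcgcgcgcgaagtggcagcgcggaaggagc
Mki67 holds 2 CHR matches, Top2a 4 and Ccnb2 2. Mcm3 holds 2 E2F matches, both after the gene start, and Mcm6 holds 3, of which the first 2 overlap each other. Mki67, Top2a and Ccnb2, a mitotic cyclin, were 54.1, 33.6 and 14.7 times higher than in mature B cells with 10 CPM added.

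**Figure D1:**
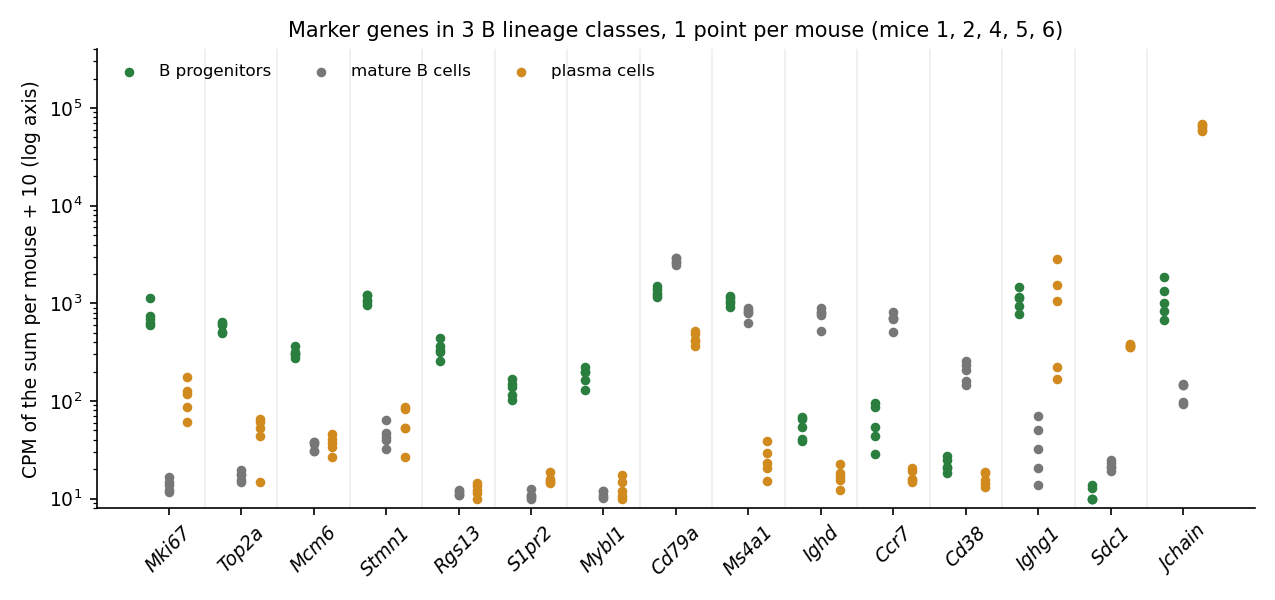
Levels of marker genes in B progenitors, mature B cells and plasma cells, as CPM of the sum per mouse plus 10 on a log axis, 1 point for each of mice 1, 2, 4, 5 and 6. The cycle genes and the germinal centre genes Rgs13, S1pr2 and Mybl1 were highest in B progenitors, while Ighd, Ccr7 and Cd38 lay highest in mature B cells and Sdc1 and Jchain in plasma cells.

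Germinal centre genes also stood higher in the class. Of 14 listed genes 12 were more than 2-fold above mature B cells in 5 of 5 mice, with a median log2 ratio of 3.63 against 0.20 for all genes. Against plasma cells 13 were higher by that rule and 0 lower, with a median of 2.95 against 1.34 for all genes. Some were common in plasma cells all the same, as means over mice of all cells. Eaf2 was found in 76.7% of plasma cells and 63.2% of B progenitors, and Basp1 in 70.7% and 84.4%. Fas was found in 29.8% and 50.7%, and Nuggc in 28.4% and 48.6%. Each of the other listed genes was found in at most 11.9% of plasma cells, which had more UMIs per cell. Rgs13, a brake on chemokine receptor signalling in germinal centre B cells, measured 247, 323, 430, 305 and 353 CPM in mice 1, 2, 4, 5 and 6 against 1.44 ± 0.66 CPM in mature B cells. Every mouse was high, with no overlap between the classes.

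S1pr2, the receptor that confines B cells to the follicle centre, reached 125 ± 26.2 against 0.86 ± 0.95 CPM. The transcription factors Mef2b and Mybl1 reached 231 ± 33.8 against 6.57 ± 2.02 CPM and 172 ± 35.6 against 1.00 ± 0.83 CPM. Gcsam and Nuggc, named for their germinal centre expression, reached 148 ± 30.4 and 126 ± 9.01 CPM, against 0.31 ± 0.54 and 0.21 ± 0.26 CPM. Fas, the death receptor on germinal centre B cells, was 6.81 times higher at 98.8 ± 18.2 CPM. Bcl6, the repressor that directs the germinal centre programme, was less distinct, at 63.2 ± 14.4 against 28.0 ± 7.65 CPM, a log2 ratio of 0.95 ± 0.18. Lmo2 was lower than in mature B cells, at 94.2 ± 21.7 against 156 ± 21.5 CPM. In mouse 3, all 12 genes also stood above the mean of mature B cells, S1pr2 and Mybl1 at 68.5 CPM each.

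Repair genes of hypermutation and switching were higher in part. Among the repair genes of the list above 50 CPM, Hmces passed the rule, as did the mismatch repair gene Msh6 at 61.2 ± 20.3 against 13.8 ± 2.89 CPM. Ung, which removes uracil from DNA, reached 60.2 ± 23.2 against 13.9 ± 2.24 CPM but did not pass 2-fold in every mouse. Several of these repair genes are also raised in S phase in any dividing cell.

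Genes of resting B cells and of exit from the follicle were lower. Of 14 genes of the resting mature list 11 were lower by the rule, and the median log2 ratio was -2.25. Ighd, the IgD heavy chain, measured 30.4, 58.7, 43.9, 29.0 and 54.7 CPM against 747 ± 144 CPM in mature B cells. Ccr7, which guides B cells towards T cell zones, measured 34.1, 77.0, 43.9, 18.7 and 84.8 CPM against 681 ± 112 CPM, and 171 CPM in mouse 3. Both genes lay far below mature B cells in each of these mice. Gpr183, which steers B cells to the outer follicle, was at 31.3 ± 16.5 against 356 ± 111 CPM. S1pr1, the receptor for exit into lymph, was at 21.8 ± 14.5 against 197 ± 35.6 CPM. Cd38, an ectoenzyme that mouse germinal centre B cells switch off, was at 12.3 ± 3.55 against 192 ± 47.3 CPM. Bcl2, the survival factor, was at 15.0 ± 4.30 against 123 ± 41.4 CPM and was the only one of 7 apoptosis regulators above 50 CPM that passed the rule.

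B cell genes were present throughout, some at a lower level than in mature B cells. Of 12 pan B cell genes 0 were higher and 3 were lower (Ebf1, Bank1 and Fcrla), with a median log2 ratio of -0.38. Cd79a, the signalling chain of the antigen receptor, measured 1262, 1200, 1494, 1382 and 1140 CPM against 2697 ± 190 CPM in mature B cells, where the class lay lower in all 5 mice. Pax5, which maintains B cell identity, measured 259 ± 33.5 against 336 ± 46.5 CPM, and Ms4a1 (CD20) 1048 ± 104 against 793 ± 103 CPM. None of the 10 MHC class II genes, which present antigen to helper T cells, passed the rule, but their median log2 ratio was -0.90 and their summed level was 13964 to 18574 CPM against 27725 to 31513 CPM. H2-Aa measured 1634, 1842, 2104, 2242 and 1837 CPM against 4493 ± 265 CPM. Of the activation genes of the germinal centre light zone 2 of 10 were lower, Cd83 at 329 ± 89.3 against 999 ± 274 CPM and Cd69. Myc lay at 34.9 ± 8.27 against 89.6 ± 33.8 CPM, while Npm1, a nucleolar protein of the MYC and ribosome biogenesis list, lay at 2113 ± 259 against 842 ± 140 CPM.

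Markers of other cells were low in most of the sums. Over mice 1, 2, 4, 5 and 6 the summed T cell list reached 0 to 62.9 CPM, the myeloid list 0 to 2.19 CPM, the fibroblast list 6.58 to 191 CPM and the endothelial list 19.1 to 47.7 CPM. The epithelial list reached 38.3 to 382 CPM, against 224 to 1680 CPM in mature B cells of the same mice. Mouse 1 held the 191 CPM of the fibroblast list, against 23.5 CPM in its mature B cells, with Dcn, a matrix proteoglycan, at 98.6 CPM. Mouse 6 held the 62.9 CPM of the T cell list, against 11.2 CPM in its mature B cells. Their part in the results was not tested.

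Plasma cells differed from the class in many genes, in part through scale. Antibody transcripts took 54.7% to 57.4% of plasma cell UMIs and 0.802% to 1.60% of B progenitor UMIs, which lowers every other gene of plasma cells in CPM. Of 3120 genes, 1513 were higher in B progenitors (48.5%) and 131 lower (4.2%), with a median log2 ratio of 1.34. With antibody UMIs left out of the totals, 411 were higher and 443 lower, and the median was 0.37. Of 14 plasma cell genes 11 were lower in B progenitors and 0 higher. Sdc1 (CD138), a surface proteoglycan of plasma cells, was at 1.28 ± 1.78 against 358 ± 11.3 CPM, and the secretory regulator Xbp1 at 85.8 ± 21.9 against 1307 ± 308 CPM. Jchain, which joins IgA and IgM into polymers, was at 1128 ± 471 against 63217 ± 4394 CPM, yet 8.66 times above mature B cells. The B cell factors Pax5 and Ebf1 were 18.3 and 21.1 times higher in B progenitors than in plasma cells with 10 CPM added, and Ms4a1 was 43.5 times higher. Antibody UMIs are in the totals behind these ratios, which raises them.

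IgG genes led the heavy chain transcripts in most cells of the class. Of 284 cells with a single leading heavy chain constant gene and at least 3 heavy chain UMIs, Ighg1 led in 185, a share of 65.1% (95% Wilson interval 59.4% to 70.4%). Ighm led in 52 cells, Ighg2b in 32, Igha in 14 and Ighd in 1, while 10 cells were tied and 34 had fewer than 3 heavy chain UMIs. In mature B cells Ighm led in 88.3% of 9973 cells and Ighg1 in 0.511%. The Ighg1 share was 77.8%, 60%, 66.7%, 64.4%, 59.3% and 39.3% in mice 1 to 6, lowest in mouse 6. In that mouse Ighg2b led in 25% of 28 cells. Of all heavy chain constant UMIs, which a few cells can fill, the IgG genes held 48.9%, 51.2%, 47.0%, 66.4%, 61.4% and 44.9% in mice 1 to 6. Summed per mouse, Ighg1 measured 1153, 928, 1472, 1131 and 763 CPM in mice 1, 2, 4, 5 and 6, against 27.1 ± 22.6 CPM in mature B cells. The 3′ tags do not tell transcripts of a switched gene from unswitched germline transcripts, and reads of near-identical IgG genes or lambda genes may be split between them.

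**Figure D2:**
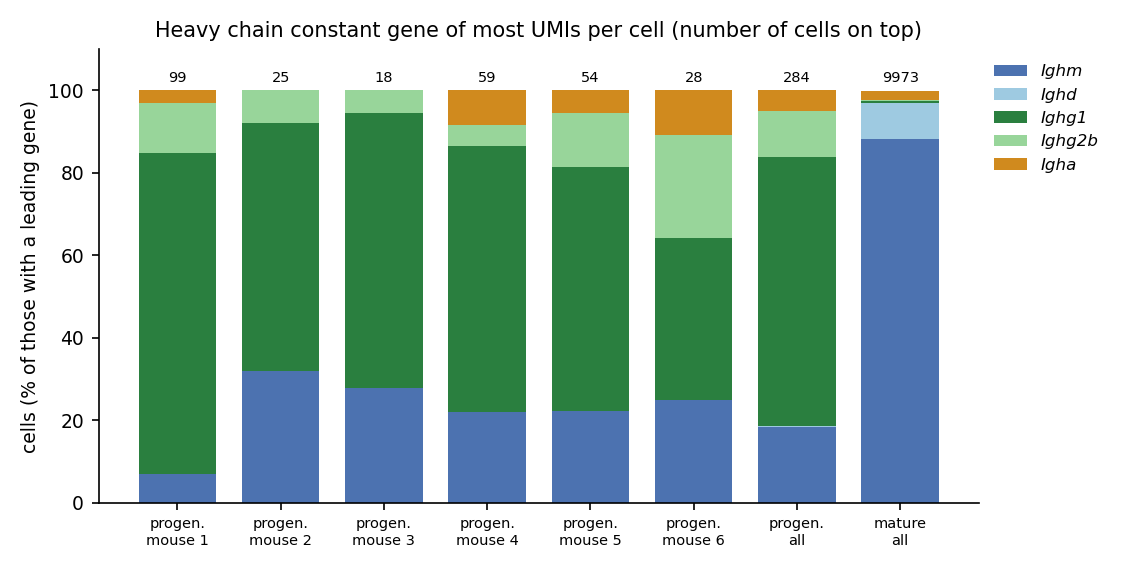
Share of cells whose heavy chain constant UMIs were led by Ighm, Ighd, Ighg1, Ighg2b or Igha, as percent of the cells with a leading gene (their number on top), for B progenitors of mice 1 to 6 and of all mice and for all mature B cells. Ighg1 held 39.3% to 77.8% of B progenitors by mouse and 0.511% of mature B cells.

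T cells, which make no antibody, gave the background of antibody RNA. With cells thinned to 1000 UMIs, Ighg1 was found in 56.3 ± 11.5% of B progenitors, 1.04 ± 0.59% of mature B cells and 0.614 ± 0.497% of T cells (SD, n = 5 mice). The unthinned shares were 71.9%, 1.75% and 1.43%. Igha, also thinned, was found in 14.3 ± 7.58% of B progenitors, below the 20.8 ± 9.46% of T cells. Unthinned, the order was the reverse, with 47.6% of B progenitors and 40.0% of T cells. Whether Igha was background RNA in the cells it did not lead was not tested. Below 1000 UMIs, 16 B progenitors and 1454 mature B cells of these mice were left out.

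Single cells held much of the light chain and IgA sums. In mouse 1, 1 cell held 3406 of 3874 Iglc1 UMIs, 622 of 877 Igha UMIs and 840 of 1522 Jchain UMIs, and it also had 12 Mki67 UMIs among 40509. In mouse 6, 1 cell held 301 of 343 Igha UMIs and 1638 of 3054 Igkc UMIs, with 22 Mki67 UMIs among 45494. Whether these are plasma cells in division or droplets with a pair of cells was not tested. Leaving out cells with equal kappa and lambda counts (2 each in mice 1 and 2), a lambda gene led the light chain in 16 of 59 cells of mouse 5 (27.1%) and in 0.82%, 4.17%, 0%, 4.41% and 6.45% of the cells of mice 1, 2, 3, 4 and 6. Variable segments were too sparse for clones, with 29 UMIs of heavy chain segments over 24 cells and 93 of kappa segments over 67.

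Cycle and germinal centre transcripts occurred in the same cells. Of 278 cells with at least 2000 UMIs, thinned to 2000, 243 (87.4%) held UMIs of both a cycle list and the germinal centre list, 19 of a cycle list only and 16 of the germinal centre list only. Left out below that depth were 50 cells. In mature B cells of mice 1, 2, 4, 5 and 6 treated alike, 25.7% of 4805 cells held UMIs of both, and 5209 shallower cells were left out. At least 1 cycle UMI was held by 94.2% of B progenitors and 70.3% of mature B cells, and 1 germinal centre UMI by 93.2% and 37.0%. Across the 278 cells the G2 and mitosis list and the germinal centre list had a Spearman's rho of -0.065 (-0.24 to 0.24 within mice). The means per cell were 13.2 cycle and 6.42 germinal centre UMIs in B progenitors and 1.31 and 0.492 UMIs in mature B cells. Ordered by UMIs of the G2 and mitosis list, 117 cells had under 3, 77 had 3 to 9 and 84 had 10 or more, so that 30.2% carried a strong mitotic signal. The S phase list was lowest in the first range, with a mean of 3.03 UMIs, and reached 8.77 and 7.88 UMIs in the others. The germinal centre list averaged 7.19, 5.10 and 6.56 UMIs over the 3 ranges, so it was no lower in cells of little mitotic signal. Rgs13 was found in 53.8%, 39.0% and 40.5% of the cells.

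MHC class II transcripts were highest in the cells with the fewest mitotic transcripts. Their list averaged 50.9 UMIs of 2000 in cells with under 3 G2 and mitosis UMIs and 32.5 and 32.4 UMIs in the others. Across the 278 cells Spearman's rho between the 2 lists was -0.43, and it ran from -0.53 to -0.23 within mice 1, 2, 4, 5 and 6. Cd83, a light zone marker, was found in 50.4%, 49.4% and 29.8% of the cells in the 3 ranges. The step was not particular to MHC class II. The pan B cell list averaged 17.2, 12.8 and 13.1 UMIs over the 3 ranges. Genes of antigen receptor signalling averaged 11.8, 8.25 and 8.69 UMIs. The MYC and ribosome biogenesis list went the other way, with 5.11, 8.21 and 6.31 UMIs. S phase and mitosis lists were correlated positively, with rho of 0.47 (0.27 to 0.60 within mice). These are descriptions across cells that share libraries and a fixed total of UMIs, so that a rise of one list lowers the others, and the median unthinned depth rose from 4966 to 7963 and 9693 UMIs over the 3 ranges.

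**Figure D3:**
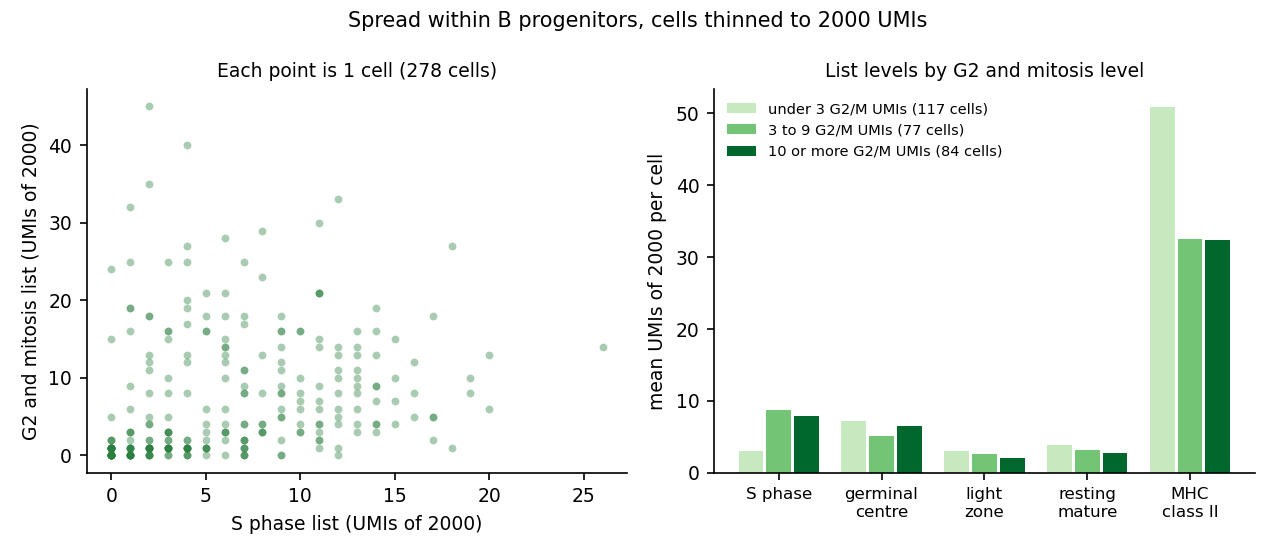
Left, UMIs of the S phase list (x axis) and of the G2 and mitosis list (y axis) in each of 278 B progenitors thinned to 2000 UMIs. Right, mean UMIs of 5 gene lists in cells grouped by their G2 and mitosis UMIs, in which the MHC class II list averaged 50.9, 32.5 and 32.4 and the germinal centre list between 5.10 and 7.19.

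No difference between the genotypes in the share of the class passed the test, and the overlap of the groups rested on mouse 8. Among B progenitors and mature B cells together it was 6.95%, 1.85%, 3.92% and 0% in WT-labelled mice 1, 4, 5 and 8, and 1.55%, 1.22%, 1.84% and 0.0843% in KO-labelled mice 2, 3, 6 and 7. The ranges overlapped, since mouse 8 had 0 of 96 cells, which allows a share of up to 3.13%. The KO-labelled mean was 1.17 ± 0.77% and the WT-labelled mean 3.18 ± 2.98% (SD, n = 4 each; two-sided exact permutation p = 0.257). As a share of all cells the means were 0.285 ± 0.205% and 0.844 ± 0.745% (exact permutation p = 0.200), and of all cells named B cells 1.05 ± 0.69% and 2.85 ± 2.75% (exact permutation p = 0.229). Each had an adjusted p of 0.257 over these 3 exact permutation tests, and the smallest p that 4 against 4 allows is 0.0286. Without mouse 8 the groups did not overlap, although mice 4 and 6 differed only in the second decimal, and the difference of -2.01 percentage points became -3.07 (exact permutation adjusted p = 0.0571, the smallest that 4 against 3 allows). Without mouse 1 it was -0.752 points (exact permutation adjusted p = 0.514). Mice 7 and 8, with 1 and 0 of the cells, were also those with the lowest share of highly mitochondrial epithelial cells (13.6% and 11.1%), and whether that plays a part was not tested.

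**Figure D4:**
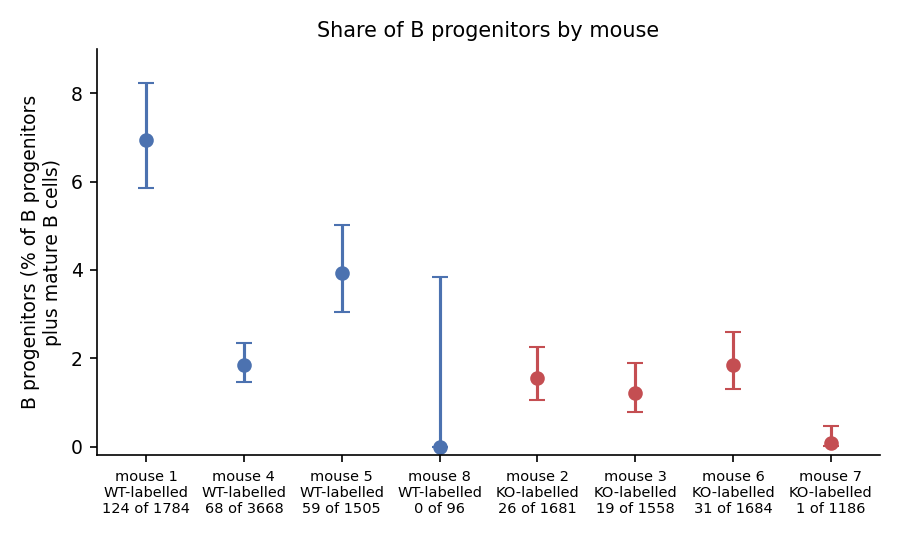
B progenitors as percent of B progenitors plus mature B cells in each mouse, with 95% Wilson intervals (counting error only) and the counts under each mouse. Mouse 1 was highest at 6.95% and mouse 8 had 0 of 96, both WT-labelled, so that the 4 KO-labelled mice lay within the range of the WT-labelled ones.

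No gene differed between the genotypes within the class at an adjusted p under 0.05 (edgeR quasi-likelihood test, 0 of 5813 genes, 0.0%, mice 2 and 6 against mice 1, 4 and 5). Unadjusted, 292 of these genes had p under 0.05 in edgeR. DESeq2 called 0 of 13394 genes, with 95 under an unadjusted 0.05. In counts simulated at the means and dispersions fitted here, the edgeR test recovered 25.4% of 2-fold, 95.5% of 4-fold and 100% of 8-fold changes, with 9 false calls. The simulation holds no free RNA and no single cell that fills a sum. Measured differences of over 4-fold were not called for Palb2, Iglc1 and Pigr (log2 fold changes of 2.26, -2.14 and -2.59). The recovered shares therefore set no limit on real changes. Without mouse 2 edgeR called 20 genes and without mouse 4 it called 2. Without mouse 2 the KO arm is mouse 6 alone and is assumed to vary like the other mice. Values of the 2 groups did not overlap for 1172 genes, 20.2% of those tested.

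The genes of smallest p are given as values that did not pass the test; their CPM are scaled by TMM factors. Palb2, a partner of the repair protein Brca2, measured 44.7 and 43.1 CPM in mice 2 and 6 and 8.82, 11.5 and 6.58 CPM in mice 1, 4 and 5 (42 UMIs in all; log2 fold change 2.26 ± 0.53 SE, edgeR adjusted p = 0.422). Gsn, an actin-severing protein, measured 52.1 and 63.2 against 135, 129 and 145 CPM (-1.22 ± 0.29 SE, edgeR adjusted p = 0.422). Irak1bp1, a regulator of NF-kB signalling, measured 70.8 and 103 against 35.3, 27.6 and 35.1 CPM (1.41 ± 0.32 SE, edgeR adjusted p = 0.422). Ccr7 measured 78.2 and 89.0 against 35.3, 46.0 and 19.7 CPM, and Ccnd2, a cyclin of G1, 101 and 109 against 60.5, 36.8 and 52.6 CPM. These groups did not overlap. Iglc1, by contrast, measured 559 and 525 against 4881, 522 and 1728 CPM, where mouse 1 rests on the 1 cell named above.

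Epithelial genes stood among them. Krt8 measured 48.4 and 11.5 CPM in mice 2 and 6 against 102, 101 and 54.8 CPM in mice 1, 4 and 5, Lgals4 41.0 and 5.74 against 94.5, 87.4 and 48.2 CPM, and Pigr 18.6 and 0 against 70.6, 27.6 and 46.0 CPM. Of 8 genes of the epithelial list 5 were tested, all with a negative log2 fold change (median -1.63) and 0 called by edgeR. Beside this, the median depth of the cells was 8995 ± 202 UMIs where KO-labelled and 5365 ± 1315 UMIs where WT-labelled (SD, n = 2 and 3; exact permutation p = 0.200, the smallest this design allows). The part of free epithelial RNA and of depth in the gene values was not tested.

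Among the lists, G2 and mitosis genes had 23 of 28 positive log2 fold changes in KO-labelled over WT-labelled mice, with a median of 0.48, while the median of all 5813 genes was 0.00. Of the 28, 13 did not overlap between the groups, where 20.2% of all genes tested did not, and 0 passed the edgeR test. Ube2c, which tags mitotic cyclins for destruction, measured 339 and 703 CPM against 239, 209 and 325 CPM (log2 fold change 1.03 ± 0.26 SE, edgeR adjusted p = 0.457). Mki67 had a log2 fold change of 0.30 ± 0.23 SE and Top2a 0.18 ± 0.21 SE (edgeR adjusted p = 0.998 each). The list's share of all UMIs was 0.552% and 0.624% in mice 2 and 6 and 0.405%, 0.429% and 0.445% in mice 1, 4 and 5 (exact permutation p = 0.200; adjusted p = 0.514 over 9 measures). Mouse 3, KO-labelled with 19 cells, had 0.287%, below all of them, and with mouse 3 in the fit the list's median was 0.27. The S phase list's share was 0.374 ± 0.009% against 0.367 ± 0.006% (SD, n = 2 and 3; exact permutation p = 0.400).

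MHC class II genes had 10 of 10 negative log2 fold changes with a median of -0.36 (6 without overlap), and antigen receptor signalling genes 13 of 14 with a median of -0.35 (10 without overlap), beside 20.2% of all genes tested without overlap. Ciita, the master regulator of MHC class II, had the lowest value of its list at -0.75 ± 0.25 SE (edgeR adjusted p = 0.842). With mouse 3 in the fit, the medians were -0.22 for MHC class II genes and -0.24 for antigen receptor signalling genes. Pan B cell genes ran the same way, with 11 of 12 negative values, a median of -0.25 and 5 without overlap. Their median was -0.19 with mouse 3. MYC and ribosome biogenesis genes had 11 of 15 negative values (median -0.18). Germinal centre genes had 3 positive and 11 negative values (median -0.18), with Rgs13 at 0.04 ± 0.24 SE (edgeR adjusted p = 0.998). No gene of any of these lists was called by edgeR.

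**Figure D5:**
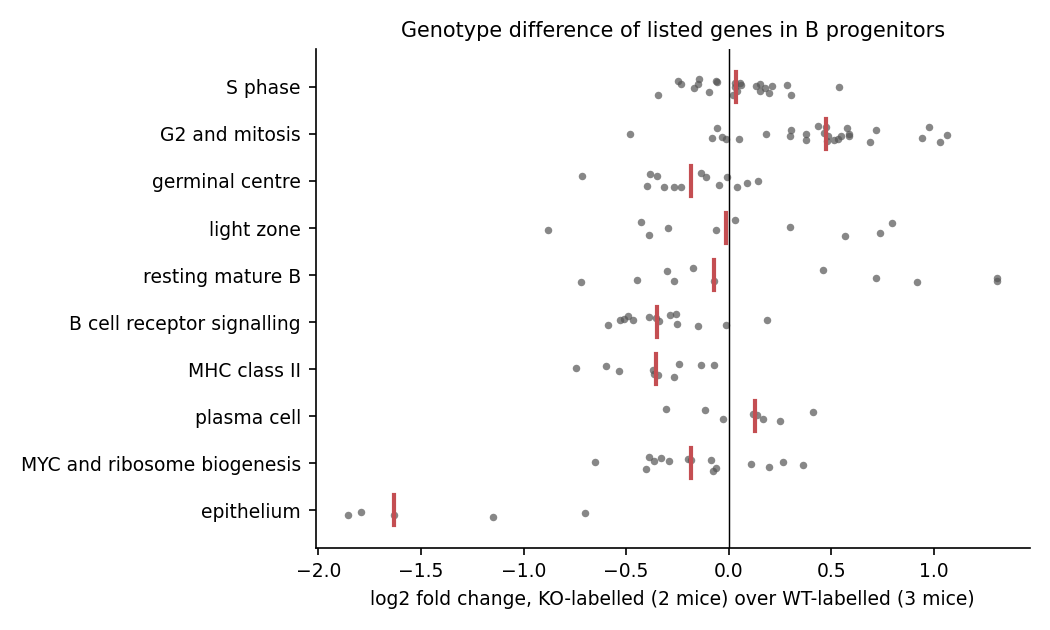
Log2 fold change of KO-labelled (mice 2 and 6) over WT-labelled (mice 1, 4 and 5) in B progenitors for the tested genes of 10 lists, 1 point per gene, with the list's median as a red bar. The medians ran from -1.63 for the epithelial list to 0.48 for the G2 and mitosis list, and no gene passed the edgeR test.

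No antibody measure passed its test between the genotypes, and 2 against 3 mice cannot go below an exact permutation p of 0.200. The Ighd share of heavy chain constant UMIs was 2.44 ± 0.21% in mice 2 and 6 and 1.37 ± 0.45% in mice 1, 4 and 5 (SD, n = 2 and 3, exact permutation p = 0.200). These mice did not overlap, but KO-labelled mouse 3 had 1.38%, within the 1.00% to 1.87% of mice 1, 4 and 5. The shares of mice 2 and 6 rested on 16 and 20 Ighd UMIs. The IgG share was 51.2% and 44.9% against 48.9%, 66.4% and 61.4% (exact permutation p = 0.400). The Igha share was 0.808% and 39.2% against 35.1%, 5.42% and 12.5% (exact permutation p = 1.00). The lambda share of light chain UMIs was 16.7 ± 6.77% against 32.7 ± 14.2% (SD, n = 2 and 3; exact permutation p = 0.400). These shares rested in part on the 3 cells of at least 500 light chain UMIs, 2 in mouse 1 and 1 in mouse 6. Without them the Igha share became 7.84% in mouse 6 and 5.26% in mouse 1, and the IgG share 73.13% and 70.96%. The lambda share became 20.6% in mouse 6 and 17.5% in mouse 1. The difference of KO-labelled minus WT-labelled mice then went from -15.97 to -1.63 percentage points for lambda, from -10.86 to -4.06 for IgG and from 1.06 to 1.61 for Ighd, and as a mean of per-cell shares lambda differed by -0.195 points. The mitochondrial share of UMIs was 5.34 ± 0.51% against 6.48 ± 0.94% (SD, n = 2 and 3; exact permutation p = 0.400). All 9 measures had an adjusted p of at least 0.514 over these exact permutation tests.

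For 8 of 9914 genes (0.0807%) the genotype difference in B progenitors differed from that in mature B cells of the same mice (edgeR interaction test, adjusted p under 0.05). Of these, 594 had an unadjusted p under 0.05. DESeq2, run on 17924 genes, called 0 and had 161 under an unadjusted 0.05, and edgeR without its filter on low counts called 9 of 17924 and had 628. Leaving out single mice gave 3 genes (without mouse 6) to 23 (without mouse 2), with 4 without mouse 4, 17 without mouse 5 and 19 without mouse 1, and adding mouse 3 left 1. The called genes were Ube2c, Ccnb2 and Cdkn3 of mitosis, the G1 cyclin Ccnd2, S100a10, the colon gene Mptx1, the haemoglobin gene Hbb-bt and Iglc1. Ube2c, Ccnb2 and Cdkn3 had 75, 42 and 29 UMIs in all mature B cells of the 5 mice, so the mature side of these differences rests on few transcripts.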

How the data were processed

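The authors deposited whole-number UMI counts per gene and cell, made with Cell Ranger 3.0.2 against mm10 per the submitters' processing notes, and a cell table with each cell's mouse, class and cluster. The authors' size factors (a ratio of totals) in the deposited table served only to check the order, and its UMAP coordinates (a score) entered no result. Matched line by line, 16 of 53080 factors fitted the totals of the matrix columns (tolerance 1e-06), and after sorting by mouse, then barcode, 53080 did. The sources used here do not say how cells were filtered and named. Cells that the authors named doublets are not among the B progenitors, mature B cells, plasma cells or T cells compared. They stayed in the totals behind the shares of all cells and of all cells named B cells. Without them the differences of KO-labelled minus WT-labelled mice were -0.566 and -1.81 percentage points, beside -0.559 and -1.80 with them. No other doublet caller was run.

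UMIs were summed per mouse and class. For KO-labelled against WT-labelled mice, sums of mice with at least 20 cells entered edgeR 4.0.16 (TMM, filterByExpr, quasi-likelihood F test, Benjamini-Hochberg, threshold 0.05; R 4.3.3), with DESeq2 1.42.0 beside it. The interaction of class and genotype had the mouse as a block. Shares and composition were compared by two-sided exact permutation over mice. Nothing in the labels says more of the replicates than that each is a mouse. Figures were drawn with matplotlib 3.10.9; pandas 2.3.3, scipy 1.17.1 and numpy 2.4.6 under Python 3.11.15 did the remaining work. Intervals (95%, Wilson) and limits from 3 counts cover counting error only. Genes were named from the 25 largest class ratios each way, the listed genes and, between genotypes, the 20 smallest p. The cells, lists and tests were chosen with earlier results of these data known. Alternatives were normalization, filters, pseudocounts, cell limits and leaving out each mouse. A few genes of these lists enter the counts and medians and are not reported here by name.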

Additional observations from a re-analysis of the deposited data

Results flagged for a closer look

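For 8 genes the difference between KO-labelled and WT-labelled mice in B progenitors differed from that in mature B cells of the same mice, by the edgeR interaction test over 9914 genes. Each value is the log2 fold change in B progenitors minus that in mature B cells, and means are CPM of the sums with SD over 2 KO-labelled and 3 WT-labelled mice. For Ube2c the difference was 2.96, from 502 ± 238 against 246 ± 55.0 CPM in B progenitors and 1.23 ± 0.43 against 4.57 ± 1.69 CPM in mature B cells. For Ccnb2 it was 3.03, with 0.435 ± 0.254 against 3.08 ± 2.55 CPM in mature B cells. For Cdkn3 it was 4.05, with 0.154 ± 0.217 against 1.94 ± 0.917 CPM there. For Ccnd2 it was 1.60, from 101 ± 3.41 against 47.7 ± 11.8 CPM in B progenitors and 76.2 ± 2.15 against 118 ± 22.2 CPM in mature B cells. For S100a10 it was 1.34, from 136 ± 78.2 against 48.4 ± 32.3 CPM and 280 ± 34.2 against 280 ± 38.1 CPM.

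For Mptx1 it was 1.96, with 57 ± 62 against 254 ± 159 CPM in mature B cells and 0 CPM in B progenitors of mouse 6. For Hbb-bt it was 2.40, from 49.8 ± 3.00 against 60.7 ± 20.2 CPM in B progenitors and 38.2 ± 46.2 against 270 ± 194 CPM in mature B cells. For Iglc1 it was -1.41, and in B progenitors of mouse 1 a single cell held 87.9% of its UMIs. Among the 6 groups of 4 mice whose shares of B progenitors were looked at, 0 held a mouse far from the others by Dixon's criterion.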

How the results depend on the processing

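No paired analysis was possible because the labels give no litter and no other pairing of KO-labelled with WT-labelled mice. Between genotypes, edgeR called 0 genes; it called 15 with no filter on low counts, 7 with every mouse of at least 1 cell, and 0 to 20 when 1 mouse was left out (2 without mouse 4, 20 without mouse 2). The 8 interaction genes became 0 with DESeq2, 1 with mouse 3 added, and 3 to 23 when 1 mouse was left out. The Igha difference (KO-labelled minus WT-labelled, 2.36 percentage points) turned to -3.86 as a mean of per-cell shares, -3.30 with mouse 3, -3.41 without the cells of at least 500 light chain UMIs, and -16.9 to 21.6 when 1 mouse was left out. The Ighm difference of 7.49 points ran from -8.41 to 23.4 when 1 mouse was left out. The S phase difference of 0.0064 points turned to -0.0093 as a mean of per-cell shares, -0.0085 with mouse 3 and -0.0066 without the 500-UMI cells. The difference in the share among B progenitors and mature B cells (-2.01 points) ran from -3.07 without mouse 8 to -0.752 without mouse 1. None of these differences passed its exact permutation test in either direction. Adding 50 CPM instead of 10 left 168 genes higher and 87 lower than in mature B cells, and 686 higher and 81 lower than in plasma cells; leaving out antibody UMIs gave 411 higher and 443 lower than in plasma cells. The cause of these changes was not tested, except that a larger added level shrinks ratios of low genes. The alternatives with mouse 3, with cluster 23 only and without the 500-UMI cells were chosen after seeing the data. With 2 against 3 mice no exact permutation test can go below 0.2.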

Other observations

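Haemoglobin transcripts differed between the B cell classes and between 2 beta globin genes. Hbb-bs measured 1028, 199, 279, 2012 and 301 CPM in mature B cells of mice 1, 2, 4, 5 and 6 and 1.22, 0, 2.19, 0 and 0 CPM in B progenitors of the same mice. Hba-a1 was at 78.4 to 677 CPM in mature B cells of those mice and had 0 UMIs in B progenitors. Hbb-bt, the neighbouring beta globin gene, was nevertheless counted in B progenitors of each of these mice, at 84.0, 47.7, 50.5, 47.7 and 51.9 CPM (147 UMIs), a narrower range than its 5.53 to 445 CPM in mature B cells. Mouse 3 had 0 CPM of Hbb-bt in B progenitors.

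Genes of glycolysis were in part higher in B progenitors than in mature B cells. Of 11 listed genes above 50 CPM 3 passed 2-fold in 5 of 5 mice, where 9.99% of all 3452 genes did. The list's median log2 ratio was 1.11, against 0.2 for all genes. Gapdh was at 1876 ± 162 against 563 ± 72.3 CPM (SD, n = 5 mice). The others were Tpi1 at 202 ± 21.5 against 60.3 ± 5.18 CPM and Pgam1 at 247 ± 56.5 against 86.6 ± 16.7 CPM. Apoe, a lipid carrier usually read as a macrophage gene, measured 532 ± 194 CPM in B progenitors. It measured 514 ± 144 CPM in mature B cells and 18.6 ± 10.3 CPM in plasma cells. The myeloid list as a whole reached at most 2.19 CPM in B progenitors. Its range was 5.57 to 42.4 CPM in mature B cells and 1.65 to 96.3 CPM in plasma cells. The source of the Apoe transcripts was not tested.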
